A study of Mus musculus with 10 samples.

Results

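Induced cardiomyocyte-like cells treated with GW501516 (GW501516 iCM) were compared with the cardiac fibroblasts (CF) of the same study across all genes. The 4 libraries of this comparison, of 10 in the series, were chosen by their labels: 2 of GW501516 iCM and 2 of CF. The GW501516 iCM libraries came from heart cells of wild-type mice aged P1-P3 that received MGT (Mef2c, Gata4 and Tbx5, transcription factors of the heart) and were taken at day 14. They were treated with GW501516, which activates the nuclear receptor PPARδ. The CF libraries came from wild-type heart cells of the same age range, also at day 14, and their titles name no vector, no factor and no solvent. The factors, their delivery and the compound therefore differ together between these groups and cannot be told apart. The series also holds 2 libraries of MGT cells with the solvent dimethyl sulfoxide (DMSO iCM), 2 of MGT cells with ZLN005, and 2 of primary cardiomyocytes (CM) at day 3. For CM the titles were used, because other label fields repeat the fibroblast entry. The labels give no dose, treatment length or share of converted cells. They do not say whether the replicates are separate animals or cultures. A p-value therefore covers only the spread between replicate libraries, estimated over all 5 groups together, and that spread may be technical.

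Direct reprogramming turns fibroblasts towards a muscle state without passing through a stem cell, and Mef2c, Gata4 and Tbx5 are the transcription factors most often used for it in the heart. PPARδ binds DNA together with a retinoid X receptor and switches on genes that take up, activate and oxidise fatty acids, the main fuel of adult heart muscle. Cardiac fibroblasts make collagen and other matrix proteins, can divide, and in culture are often accompanied by macrophages of the heart.

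Levels are given for each library as counts per 1000000 (CPM), with library totals adjusted by TMM scaling. Log2 fold changes ± standard error are those of GW501516 iCM over CF from edgeR's quasi-likelihood test, and a gene was called at an adjusted p under 0.05. Total counts were 41843624 and 40290880 in GW501516 iCM, against 61016247 and 61886463 in CF. Of 13 cardiomyocyte markers, 9 were called higher and 3 lower in GW501516 iCM, and of 9 fibroblast markers tested 2 were called higher and 7 lower. Their summed levels were 11988 and 11856 CPM in GW501516 iCM, against 359 and 544 CPM in CF, for the cardiomyocyte markers. For the fibroblast markers the sums were 13179 and 13359 CPM in GW501516 iCM, against 35375 and 39449.5 CPM in CF. The 2 fibroblast markers called higher were Thy1 and Postn. Postn had a mean of 1178 CPM in GW501516 iCM, against 754 CPM in CF (log2 change 0.64). The number of genes at least 1 log2 unit apart between replicates was 881 in GW501516 iCM, against 1148 in CF. The 24 macrophage and leukocyte markers made up 0.0184% and 0.0185% of counts in GW501516 iCM, against 0.439% and 0.0706% in CF replicates 1 and 2. These are bulk samples, in which fewer cells of a type and less RNA per cell cannot be told apart.

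Of 15740 genes tested, 7849 (49.9%) were called, 3769 (23.9%) higher and 4080 (25.9%) lower in GW501516 iCM. At least a 4-fold change was seen in 625 called genes that rose and 672 that fell, and at least a 32-fold change in 119 that rose and 60 that fell. CPM ranges of the groups did not overlap for 11562 genes (73.5%). The counts of each gene list below are read against these shares. In DMSO iCM over CF, which shares the CF libraries, 6192 genes (39.3%) were called, 3126 (19.9%) higher and 3066 (19.5%) lower. The difference of GW501516 iCM from DMSO iCM was called for 2323 genes (14.8%), 1228 (7.8%) higher and 1095 (6.96%) lower with GW501516, and for 955 to 1256 genes when any of its 4 libraries was left out.

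**Figure D1:**
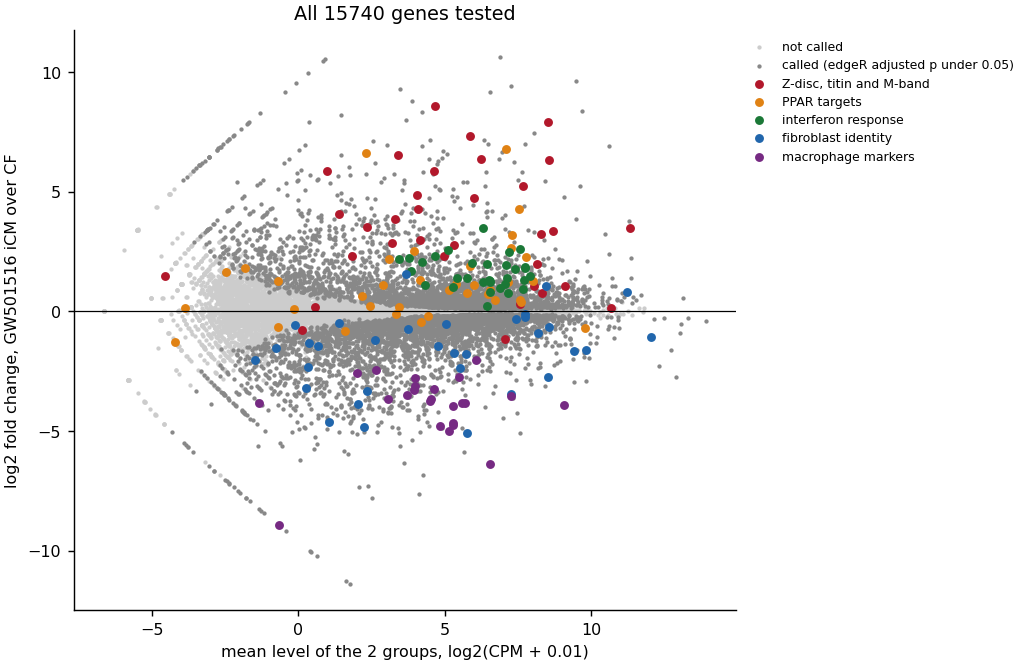
Log2 fold change of GW501516 iCM over CF (vertical axis) against the mean level of both groups (horizontal axis, log2 of CPM plus 0.01) for the 15740 genes tested, with 5 gene lists in colour. Z-disc and interferon genes lie mostly above 0, fibroblast and macrophage genes mostly below, and the slanted lines at the left are genes at or near 0 counts in 1 of the groups.

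**Figure D2:**
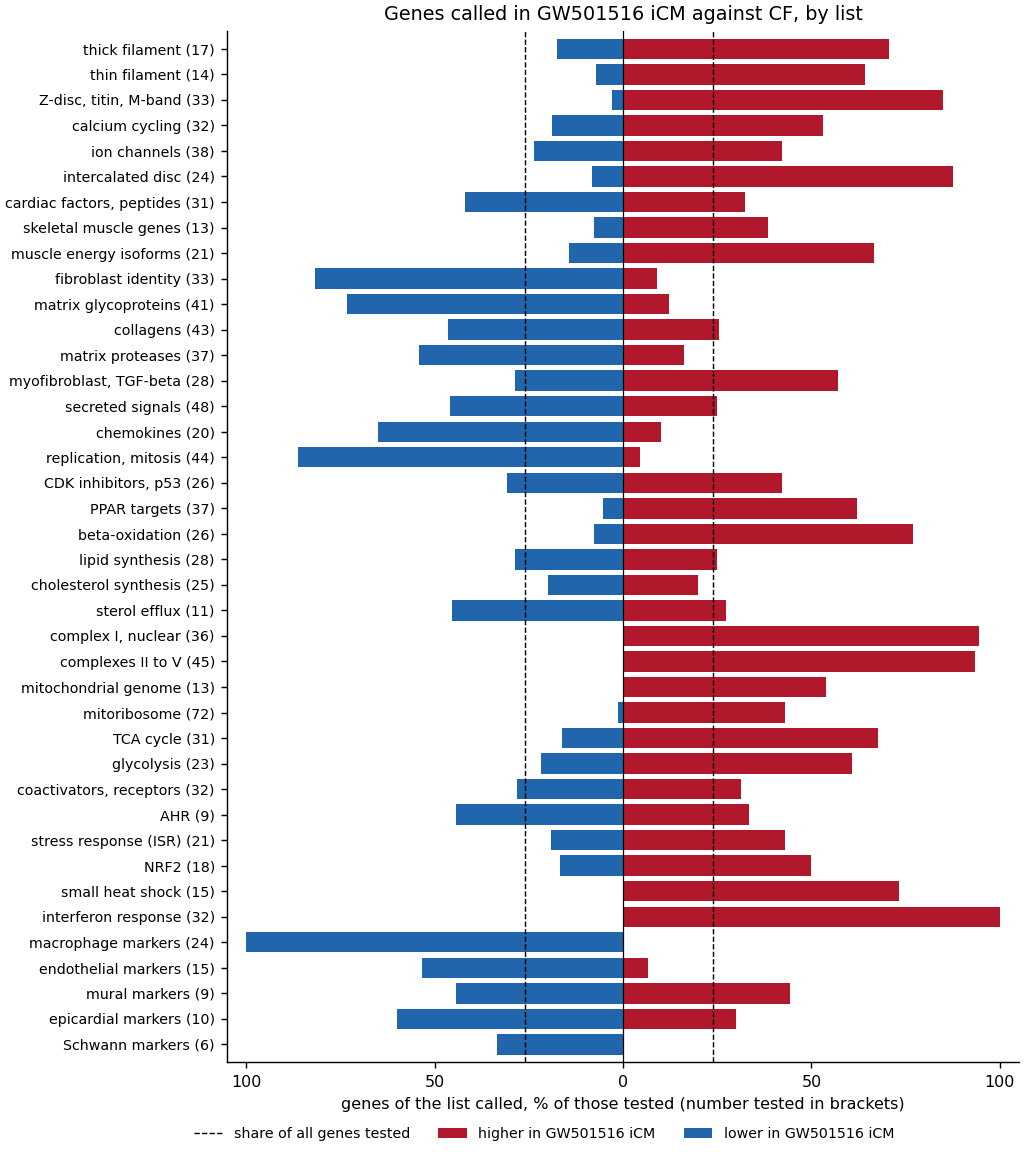
Share of the tested genes of each of 40 lists that were called higher (red, to the right) or lower (blue, to the left) in GW501516 iCM than in CF, with the number tested in brackets. Dashed lines mark the shares over all genes, 23.9% higher and 25.9% lower.

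The factor genes were all higher in GW501516 iCM. Tbx5, a T-box factor of the heart, lies on chromosome 5 from 119796514 to 119885220 (GRCm38.p6) and had 509 and 536 CPM in GW501516 iCM, against 3.01 and 2.99 CPM in CF, a log2 change of 7.45 ± 0.07 (adjusted p = 5.19e-13). Mef2c had 424 and 459 CPM in GW501516 iCM, against 96.8 and 88.2 CPM in CF, a log2 change of 2.26 ± 0.08. Gata4 had 444 and 449 CPM in GW501516 iCM, against 149.6 and 163 CPM in CF, a log2 change of 1.51 ± 0.05. No library of one group overlapped the other for these 3 genes, and counts from the delivered factors and from the cells' own copies are not separated in the table. Ppard, which encodes the receptor of GW501516, had 34.4 and 36.6 CPM in GW501516 iCM, against 36.8 and 35.4 CPM in CF, with ranges that overlapped and a log2 change of -0.03 ± 0.06 (adjusted p = 0.764).

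Scd1, the stearoyl-CoA desaturase named in the study's title, had 130.1 and 130.0 CPM in GW501516 iCM, against 103 and 117 CPM in CF. Both GW501516 iCM libraries were higher, by 0.24 ± 0.07 on the log2 scale (adjusted p = 0.00931), and the call was lost without GW501516 iCM replicate 1 (adjusted p = 0.0559) or replicate 2 (adjusted p = 0.0562). Over DMSO iCM, which had 74.5 and 72.2 CPM, the log2 change was 0.83 ± 0.07 (adjusted p = 2.77e-05). Ppargc1a, the gene of the mitochondrial coactivator PGC1α, had 2.27 and 3.39 CPM in GW501516 iCM, against 2.17 and 2.04 CPM in CF, with both GW501516 iCM libraries just above both CF libraries. Its log2 change of 0.42 ± 0.19 was not called (adjusted p = 0.0853), but was called without GW501516 iCM replicate 1, at 0.68 (adjusted p = 0.0127).

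Genes of the contractile apparatus made up many of the largest rises. Of 17 thick filament genes tested, which encode the myosins and their binding proteins, 12 rose and 3 fell, with a median log2 change of 3.28 against -0.02 over all genes. Myl7, the atrial regulatory light chain, had 1664 and 1586 CPM in GW501516 iCM, against 5.30 and 4.45 CPM in CF, and rose by 8.38 ± 0.10 on the log2 scale (adjusted p = 1.11e-12). Myl4, the atrial essential light chain, had 3160.4 and 3042 CPM in GW501516 iCM, against 19.9 and 31.3 CPM in CF, a log2 change of 6.92 ± 0.19. The groups stood far apart for both genes, and CF replicate 2 was the higher of the CF libraries for Myl4 and the lower for Myl7. Myh6, the alpha myosin heavy chain of heart muscle, had 1517 and 1550.3 CPM in GW501516 iCM, against 39.0 and 41.4 CPM in CF, a log2 change of 5.25 ± 0.07 (adjusted p = 3.81e-12). In CM it had 9652 and 9642 CPM, so that the mean of GW501516 iCM was 15.9% of the CM mean. Summed levels of the fibroblast identity genes were 7364 and 7298 CPM in CM and 8276 and 8309 CPM in GW501516 iCM. In CF they were 11974 and 13771.5 CPM. The cardiomyocyte share of CM, taken at day 3, was not tested, so percentages of CM means refer to these bulk libraries.

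Both ventricular light chains went the other way. Myl2, the ventricular regulatory chain, had 1.64 and 0.979 CPM in GW501516 iCM, against 7.05 and 9.48 CPM in CF, and fell by 2.65 on the log2 scale (adjusted p = 1.61e-06). Myl3, the ventricular essential chain, had 0.387 and 0.351 CPM in GW501516 iCM, against 3.40 and 5.51 CPM in CF, a log2 change of -3.58 ± 0.36 (adjusted p = 1.39e-05). Levels of these genes did not overlap and were low in both groups, while CM had 1514 and 1527 CPM of Myl2 and 702 and 749 CPM of Myl3. Over DMSO iCM both were also lower, with log2 changes of -2.01 ± 0.22 (adjusted p = 0.000218) for Myl2 and -2.37 ± 0.43 (adjusted p = 0.005) for Myl3. The second of these calls was lost without GW501516 iCM replicate 2 (adjusted p = 0.0505). Myl1, a light chain of fast skeletal and embryonic muscle, rose instead, with 60.4 and 60.5 CPM in GW501516 iCM, against 0.504 and 0.656 CPM in CF, a log2 change of 6.70 ± 0.10. It was higher than in DMSO iCM by 2.55 ± 0.07 on the log2 scale (adjusted p = 1.03e-08).

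Among 14 thin filament genes, 9 rose and 1 fell (median log2 change 2.02), or 2 fell without CF replicate 2. Tnnt2, the cardiac troponin T, had 4617 and 4618 CPM in GW501516 iCM, against 255 and 419 CPM in CF, with CF replicate 2 the higher CF library and no overlap (log2 change 3.77 ± 0.19, adjusted p = 6.04e-08). Its mean was 98.3% of that in CM. Tnni3, the adult cardiac troponin I, had 87.4 and 86.6 CPM in GW501516 iCM, against 4.63 and 3.99 CPM in CF, a log2 change of 4.33 ± 0.12, and a mean 12.2% of that in CM. Lmod2, a leiomodin that lengthens thin filaments, had 162 and 158 CPM in GW501516 iCM, against 0.945 and 1.26 CPM in CF. Tnnt3, the fast skeletal troponin T, had 51.4 and 48.4 CPM in GW501516 iCM, against 3.40 and 3.30 CPM in CF. Both genes rose, by log2 changes of 7.18 ± 0.08 for Lmod2 and 3.90 ± 0.10 for Tnnt3. The gene that fell was Tnnt1, the slow skeletal troponin T, with 2.39 and 2.63 CPM in GW501516 iCM, against 7.15 and 6.76 CPM in CF (log2 change -1.47 ± 0.17).

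Of 33 Z-disc, titin and M-band genes, which anchor the filaments, 28 rose and 1 fell, with a median log2 change of 3.34. Myom2, an M-band protein, had 725 and 731 CPM in GW501516 iCM, against 2.77 and 3.30 CPM in CF, a log2 change of 7.91 ± 0.08 (adjusted p = 5.19e-13). Smpx, a small protein of striated muscle, had 119 and 112 CPM in GW501516 iCM, against 0.724 and 0.722 CPM in CF, a log2 change of 7.31 ± 0.08. Actn2, the Z-disc alpha-actinin, had 123 and 124 CPM in GW501516 iCM, against 4.50 and 4.82 CPM in CF, which left the GW501516 iCM mean at 11% of the CM mean. Replicates lay close together in both groups for these genes and did not overlap between them. Synpo2, a synaptopodin, was the member that fell, with 80.5 and 82.3 CPM in GW501516 iCM, against 173 and 195 CPM in CF. Against DMSO iCM, 22 of the 33 were higher and 2 lower, with a median difference of 0.50 on the log2 scale.

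Sequences upstream of the start sites, taken from the RefSeq promoter table (GRCm38.p6, 250 bases before the start), were searched on both strands for 12 short motifs, chosen after the gene values were seen. The motif of MEF2 factors, written here as CTA and TAG with 4 bases of any kind between them, reads the same on both strands. It was in 9 of the 24 Z-disc and M-band members that had a promoter in the table, among them Synpo2, which fell. Over all 27025 genes of the promoter table, tested here or not, it was in 3.7%. It was also in 1 of 17 thick filament members, 0 of 10 thin filament members and 0 of 18 calcium cycling members. The GATA motif AGATAA was in 5 of the 24 Z-disc promoters and in 11.4% of all, and the T-box motif AGGTGT in 3 of the 24 and in 13.6% of all. For thick filament, thin filament and calcium cycling members, the GATA motif was in 4 of 17, 2 of 10 and 1 of 18. The T-box motif was in 1 of 17, 4 of 10 and 3 of 18 of the same lists. The box CCAAT was in 16 of 17 cholesterol synthesis promoters and in 27 of 36 replication and mitosis promoters, against 37.5% of all, and the CHR letters TTTGAA were in 11 of the 36 and in 18.3% of all. The others were 2 forms of the PPAR element with less fixed letters, the CArG box, the letters GTGACC, and TCAC and CCAC 1 base apart. The 4 contractile members with the MEF2 motif and the smallest p-values are printed below 5′ to 3′ on the strand of the gene, with the motif in capitals, to show the match in its setting. Their windows are chrX:157698723-157698972 on the plus strand for Smpx, chr14:20668355-20668604 on the minus strand for Synpo2l, chr2:76982548-76982797 on the minus strand for Ttn and chr2:91117894-91118143 on the plus strand for Mybpc3.
Smpx: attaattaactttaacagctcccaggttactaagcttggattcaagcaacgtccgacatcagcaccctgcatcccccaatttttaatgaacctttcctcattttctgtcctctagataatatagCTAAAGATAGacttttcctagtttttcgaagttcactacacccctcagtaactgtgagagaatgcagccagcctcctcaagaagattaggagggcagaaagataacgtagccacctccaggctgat
Synpo2l: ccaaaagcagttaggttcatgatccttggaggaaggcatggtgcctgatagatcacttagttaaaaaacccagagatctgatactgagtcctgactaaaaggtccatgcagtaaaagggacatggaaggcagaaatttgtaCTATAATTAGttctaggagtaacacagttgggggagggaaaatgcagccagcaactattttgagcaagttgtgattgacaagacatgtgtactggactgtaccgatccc
Ttn: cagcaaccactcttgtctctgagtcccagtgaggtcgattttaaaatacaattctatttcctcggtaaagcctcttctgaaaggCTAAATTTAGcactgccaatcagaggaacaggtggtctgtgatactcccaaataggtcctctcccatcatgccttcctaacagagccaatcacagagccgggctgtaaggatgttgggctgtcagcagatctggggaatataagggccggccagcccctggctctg
Mybpc3: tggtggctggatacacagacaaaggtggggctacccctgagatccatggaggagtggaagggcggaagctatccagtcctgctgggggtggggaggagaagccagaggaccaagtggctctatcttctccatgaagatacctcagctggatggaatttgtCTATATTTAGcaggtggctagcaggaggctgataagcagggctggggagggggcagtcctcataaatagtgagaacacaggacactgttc

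The match began 126 bases before the start in Smpx, 109 in Synpo2l, 166 in Ttn and 90 in Mybpc3. Synpo2l, a Z-disc relative of synaptopodin, had 149 and 150.0 CPM in GW501516 iCM, against 1.61 and 1.97 CPM in CF. Ttn, the giant spring protein titin, had 386 and 402 CPM in GW501516 iCM, against 9.73 and 11.2 CPM in CF. Mybpc3, the cardiac myosin-binding protein C, had 74.9 and 73.4 CPM in GW501516 iCM, against 6.85 and 8.45 CPM in CF. All 3 rose without overlap, by log2 changes of 6.39 ± 0.07 for Synpo2l, 5.23 ± 0.08 for Ttn and 3.28 ± 0.08 for Mybpc3. A match is a description of the letters in this window and not a test of binding.

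Calcium cycling genes rose more often than they fell, in 17 against 6 of 32, with a median log2 change of 0.85. Sln encodes sarcolipin, the atrial inhibitor of the calcium pump, lies on chromosome 9 from 53850251 to 53853849, and had 312 and 301 CPM in GW501516 iCM, against 0.409 and 0.492 CPM in CF, a log2 change of 9.40 ± 0.09 (adjusted p = 5.19e-13). Ryr2, the calcium release channel of the heart, had 420.5 and 435 CPM in GW501516 iCM, against 2.98 and 3.84 CPM in CF (log2 change 6.97 ± 0.11). Trdn, triadin of the same release complex, had 325 and 322 CPM in GW501516 iCM, against 4.08 and 4.46 CPM in CF (log2 change 6.24 ± 0.06). These 3 genes were high in both GW501516 iCM libraries and low in both CF libraries. Atp2a2, the calcium pump SERCA2, was already abundant in CF, with 2601 and 2645 CPM in GW501516 iCM, against 487 and 513 CPM in CF, and rose by 2.39 ± 0.06 on the log2 scale. Cacnb2, a beta subunit of the calcium channel, fell, with 3.62 and 3.49 CPM in GW501516 iCM, against 11.7 and 12.6 CPM in CF (log2 change -1.77 ± 0.09, adjusted p = 9.61e-08).

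Ion channel and excitability genes split, with 16 of 38 higher and 9 lower. Kcnc4, a fast potassium channel gene on chromosome 3 from 107438298 to 107460287, had 234 and 236 CPM in GW501516 iCM and 221 and 213 CPM in DMSO iCM, against 0.0945 and 0.197 CPM in CF. Its log2 change of 10.64 ± 0.18 (adjusted p = 1.76e-11) was the largest among the named rises, while CM had 0.177 and 0 CPM. Rxfp1, the relaxin receptor, had 178 and 191 CPM in GW501516 iCM, against 0.252 and 0.394 CPM in CF (log2 change 9.15 ± 0.10). Gja1, the gap junction protein connexin 43, had 286 and 284 CPM in GW501516 iCM, against 58.3 and 66.0 CPM in CF (log2 change 2.20 ± 0.06). Cacna1g, a T-type calcium channel, was lower, with 1.33 and 2.03 CPM in GW501516 iCM, against 17.5 and 17.0 CPM in CF (log2 change -3.36 ± 0.17). Of 24 intercalated disc and costamere genes, 21 rose and 2 fell, or 1 fell without GW501516 iCM replicate 2 or CF replicate 2. Dsp, desmoplakin of the desmosome, had 653 and 678 CPM in GW501516 iCM, against 15.7 and 15.1 CPM in CF, and its 628 and 619 CPM in DMSO iCM gave no called difference from GW501516 iCM (log2 change 0.09 ± 0.05, adjusted p = 0.222).

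Cardiac transcription factors and natriuretic peptides were split, with 10 of 31 higher and 13 lower (median log2 change -0.49). Nkx2-5, a core cardiac homeobox factor, had 0.193 and 0.0502 CPM in GW501516 iCM, against 0.157 and 0.361 CPM in CF, with ranges that overlapped near 0 (log2 change -1.05 ± 0.68, adjusted p = 0.229). CM had 31.0 and 28.4 CPM of it. Nppa, the atrial natriuretic peptide, had 3.26 and 3.64 CPM in GW501516 iCM, against 5.65 and 6.65 CPM in CF, and fell by 0.83 on the log2 scale (adjusted p = 0.000651), while CM had 4987 and 5402 CPM. Corin, the protease that matures this peptide, rose, with 51.9 and 52.8 CPM in GW501516 iCM, against 0.661 and 0.788 CPM in CF (log2 change 6.17 ± 0.09). Tbx18, an epicardial and sinus node factor, had 238 and 240.2 CPM in GW501516 iCM, against 80.7 and 90.0 CPM in CF (log2 change 1.49 ± 0.06). Among 13 genes of skeletal muscle, 5 rose and 1 fell, and 3 rose without GW501516 iCM replicate 2 or CF replicate 1. Myh1 and Myh2, fast skeletal myosins whose similar sequences may share reads, were among those that rose. Myh1 had 37.5 and 38.4 CPM in GW501516 iCM, against 1.57 and 2.89 CPM in CF (log2 change 4.09 ± 0.23). Myh2 had 15.4 and 15.2 CPM in GW501516 iCM, against 1.24 and 1.48 CPM in CF (log2 change 3.49 ± 0.21).

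**Figure D3:**
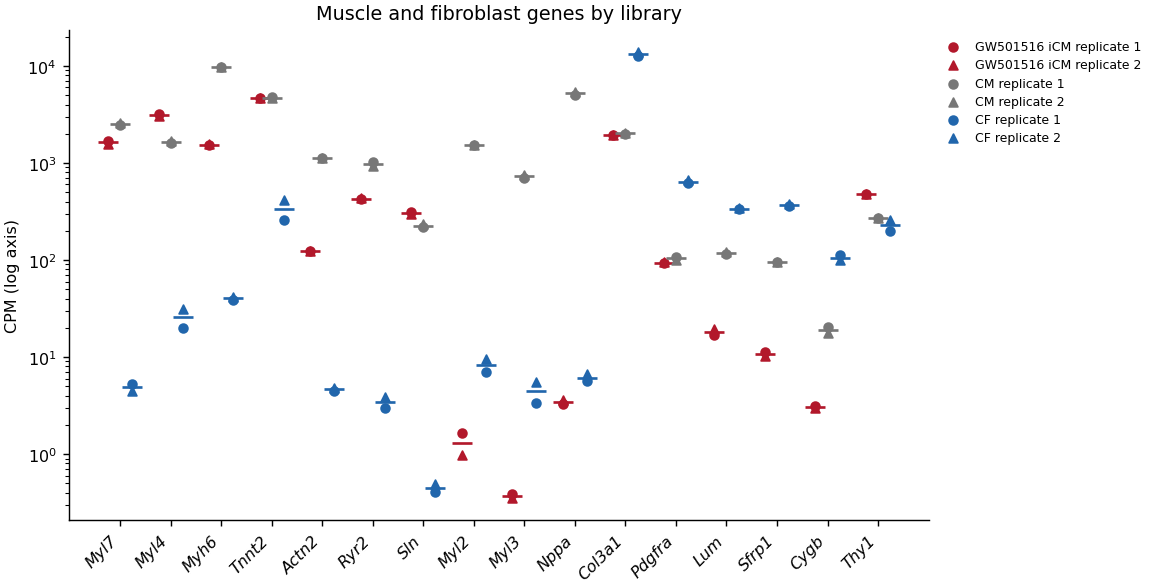
CPM on a log axis of 10 muscle genes and 6 fibroblast genes in each library of GW501516 iCM (red), CM (grey) and CF (blue), with circles for replicate 1, triangles for replicate 2 and dashes for group means. Myl2, Myl3 and Nppa lie below CF in GW501516 iCM and far above both in CM. Of the 6 fibroblast genes shown, Thy1 is the one that lies above CF in GW501516 iCM.

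Fibroblast identity genes fell in 27 of 33 cases and rose in 3, with a median log2 change of -1.47. Cygb, cytoglobin of matrix-making cells, had 3.17 and 2.99 CPM in GW501516 iCM, against 112 and 98.9 CPM in CF, a log2 change of -5.09 ± 0.11 (adjusted p = 9.46e-11). Pdgfra, the receptor that marks fibroblasts of the heart, had 92.2 and 95.5 CPM in GW501516 iCM, against 614 and 661 CPM in CF. Dpt, dermatopontin, had 15.2 and 15.1 CPM in GW501516 iCM, against 73.9 and 80.6 CPM in CF. No library overlapped between the groups, and the log2 changes were -2.76 ± 0.06 for Pdgfra and -2.35 ± 0.07 for Dpt. Dpt was nevertheless higher in GW501516 iCM than in DMSO iCM, at 7.89 and 7.82 CPM in DMSO iCM (log2 change 0.95 ± 0.07, adjusted p = 2.74e-05). Thy1, a fibroblast surface protein, and Vim, vimentin, went against the list. Thy1 had 481 and 477 CPM in GW501516 iCM, against 199.7 and 256 CPM in CF (log2 change 1.07 ± 0.09). Vim had 3039.6 and 3029.6 CPM in GW501516 iCM, against 1677 and 1771 CPM in CF (log2 change 0.82 ± 0.05).

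Of 41 proteoglycan, elastic fibre and adhesive matrix genes 30 fell and 5 rose (median log2 change -1.02), and 8 rose without CF replicate 2. Lum, lumican, had 16.7 and 19.2 CPM in GW501516 iCM, against 336 and 341 CPM in CF (log2 change -4.24 ± 0.07, adjusted p = 9.29e-12). Mfap4, a microfibril protein, had 159 and 154 CPM in GW501516 iCM, against 1133 and 1278 CPM in CF (log2 change -2.95 ± 0.06). Dcn, decorin, had 169 and 166 CPM in GW501516 iCM, against 753 and 748 CPM in CF, a log2 change of -2.16 ± 0.05. It was higher than the 113 and 121 CPM of DMSO iCM (log2 change 0.52 ± 0.04, adjusted p = 4.86e-05). Ltbp1, which holds latent TGF-beta in the matrix, rose, with 415 and 416 CPM in GW501516 iCM, against 36.5 and 43.3 CPM in CF (log2 change 3.38 ± 0.07). Among 43 collagen chains 20 fell and 11 rose, with a median log2 change of -0.04, or -0.14 and -0.10 without GW501516 iCM replicate 1 and 2 and -0.16 without CF replicate 1. Col3a1, a main fibrillar chain, had 1947 and 1922 CPM in GW501516 iCM, against 12581 and 13741 CPM in CF (log2 change -2.77 ± 0.06). Col1a1 had 5659 and 5832 CPM in GW501516 iCM, against 10200.2 and 11616 CPM in CF (log2 change -0.93 ± 0.07). Both fibrillar chains were lower in each GW501516 iCM library. Col22a1, a chain of muscle-tendon junctions, had 36.9 and 38.3 CPM in GW501516 iCM, against 0.0945 and 0.131 CPM in CF (log2 change 8.35 ± 0.14), and both it and Col4a3, a basement membrane chain, rose. Col4a3 had 80.0 and 91.3 CPM in GW501516 iCM, against 9.70 and 13.1 CPM in CF (log2 change 2.91 ± 0.12).

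Of 37 matrix proteases and inhibitors, 20 fell and 6 rose. Mmp2, a gelatinase, had 413 and 395 CPM in GW501516 iCM, against 1449 and 1654 CPM in CF (log2 change -1.94 ± 0.07). Mmp3, stromelysin, had 20.8 and 19.1 CPM in GW501516 iCM, against 76.0 and 68.3 CPM in CF (log2 change -1.85 ± 0.08), yet exceeded the 7.18 and 6.89 CPM of DMSO iCM by 1.5 ± 0.09 on the log2 scale (adjusted p = 3.84e-06). Secreted Wnt, BMP, IGF and PDGF signals and their inhibitors fell in 22 and rose in 12 of 48 cases. Sfrp1, a secreted Wnt inhibitor on chromosome 8 from 23411383 to 23449632, had 11.1 and 10.2 CPM in GW501516 iCM, against 356 and 380.0 CPM in CF, a log2 change of -5.11 ± 0.07 (adjusted p = 2.23e-12). Igf1, the growth factor, had 44.0 and 39.1 CPM in GW501516 iCM, against 296 and 314 CPM in CF (log2 change -2.88 ± 0.08). Both genes were also lower than in DMSO iCM, by log2 changes of -0.92 ± 0.07 for Sfrp1 and -0.69 ± 0.07 for Igf1. Hbegf, an EGF receptor ligand, rose, with 189 and 183 CPM in GW501516 iCM, against 34.6 and 37.5 CPM in CF (log2 change 2.37 ± 0.05).

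Of 28 myofibroblast, smooth muscle and TGF-beta genes 16 rose and 8 fell (median log2 change 0.57, or 0.30 without CF replicate 1). Tgfb2, a TGF-beta ligand, had 486 and 509 CPM in GW501516 iCM, against 112 and 140.4 CPM in CF (log2 change 1.98 ± 0.09). Tgfbr1, its receptor, had 182 and 185 CPM in GW501516 iCM, against 95.6 and 87.4 CPM in CF (log2 change 1.01 ± 0.05). Tgfbi, a TGF-beta-induced matrix protein, had 13.6 and 12.9 CPM in GW501516 iCM, against 67.1 and 57.5 CPM in CF (log2 change -2.23 ± 0.09) and fell, as did Itga11, a collagen-binding integrin (log2 change -1.73 ± 0.10).

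Known targets of PPAR receptors rose in 23 of 37 tested members and fell in 2, with a median log2 change of 0.90. Angptl4, an inhibitor of lipoprotein lipase and a direct PPARδ target, lies on chromosome 17 from 33774900 to 33781575 and had 276 and 269 CPM in GW501516 iCM, against 2.27 and 2.62 CPM in CF. The groups differed by 6.80 ± 0.11 on the log2 scale (adjusted p = 9.59e-12), and DMSO iCM had 1.88 and 2.46 CPM (log2 change of GW501516 iCM over DMSO iCM 6.98 ± 0.11, adjusted p = 2.05e-10). Pdk4, the kinase that shuts off pyruvate dehydrogenase, on chromosome 6 from 5483351 to 5496278, had 350.0 and 348 CPM in GW501516 iCM and 30.6 and 31.0 CPM in DMSO iCM, against 16.9 and 18.5 CPM in CF (log2 change over CF 4.30 ± 0.05). Cidea, a lipid droplet protein, had 9.66 and 9.73 CPM in GW501516 iCM, against 0.0945 and 0.0985 CPM in CF (log2 change 6.62 ± 0.21, adjusted p = 2.26e-09).

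Ucp2, a mitochondrial carrier, had 362 and 369.8 CPM in GW501516 iCM and 39.1 and 40.3 CPM in DMSO iCM, against 97.5 and 54.0 CPM in CF (log2 change over CF 2.27 ± 0.20). The list as a whole had 23 members higher and 0 lower in GW501516 iCM than in DMSO iCM. In DMSO iCM over CF it had 12 higher and 8 lower, with a median log2 change of 0.04. Not all members rose. Lpl, lipoprotein lipase, fell, with 670.0 and 686 CPM in GW501516 iCM, against 966 and 1213 CPM in CF (log2 change -0.68 ± 0.09, adjusted p = 7.58e-05). Fabp4, a fatty acid-binding protein, also fell, with 2.37 and 1.93 CPM in GW501516 iCM, against 4.69 and 2.92 CPM in CF (log2 change -0.82 ± 0.25). Its call was lost without CF replicate 1 (log2 change -0.42, adjusted p = 0.115) or GW501516 iCM replicate 2 (log2 change -0.69, adjusted p = 0.115). Cd36, a fatty acid transporter, had 14.7 and 16.2 CPM in GW501516 iCM, against 26.2 and 16.1 CPM in CF and was not called (adjusted p = 0.0567). Cd36, Cd163, Cldn5, Col1a1, Cpt1a, Ifit3, Ifit3b, Nkx2-5, Nppa, Tnnt2, Ttn and Ucp2 were not reached by the rule for named genes and were picked after their values were seen. The direct repeat of AGGTCA with 1 base between the copies, a form of the PPAR element, was in 0 of 28 promoters of the list and in 0.0407% of all, which says only that these letters are not in this window.

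**Figure D4:**
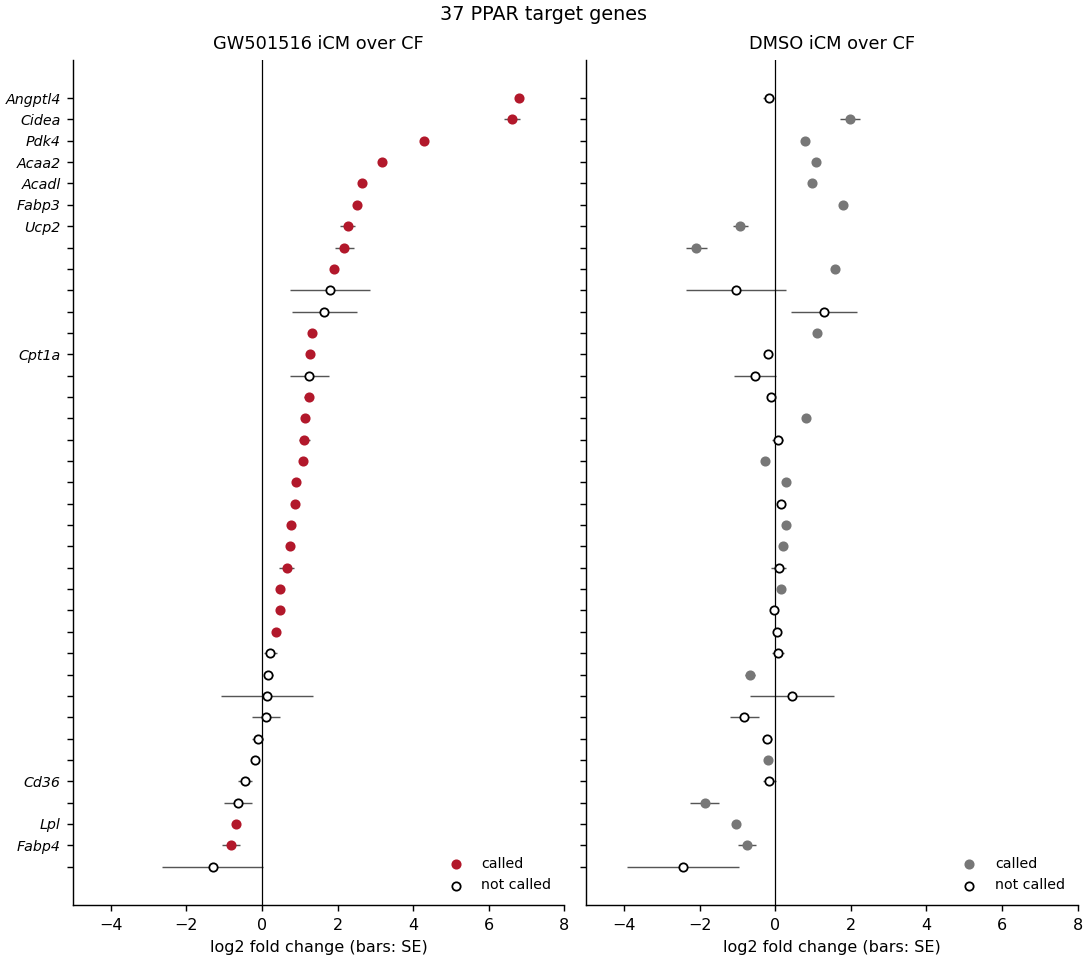
Log2 fold change with standard error of the 37 PPAR target genes tested, in GW501516 iCM over CF (left) and in DMSO iCM over CF (right), in the order of the left panel, with the genes named in the text labelled. Filled points were called, open points were not, and both panels share the CF libraries. Angptl4 is at 6.80 on the left and near 0 on the right.

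Fatty acid activation and beta-oxidation genes rose in 20 and fell in 2 of 26 cases (median log2 change 0.68). Some members, such as Acaa2 and Acadl, are also in the PPAR target list, so the counts of these lists are not separate results. Acaa2, the mitochondrial thiolase, had 291 and 276 CPM in GW501516 iCM, against 31.1 and 31.8 CPM in CF (log2 change 3.17 ± 0.05, adjusted p = 5.46e-12). Acadl, the long-chain dehydrogenase, had 269.9 and 259 CPM in GW501516 iCM, against 40.9 and 44.3 CPM in CF (log2 change 2.63 ± 0.05). Cpt1a, which passes long-chain fatty acids into mitochondria, had 364 and 369 CPM in GW501516 iCM, against 142 and 163 CPM in CF (log2 change 1.27 ± 0.07). The groups did not overlap for these 3 genes, and 20 members of the list were also higher than in DMSO iCM, with 0 lower. Echs1, the short-chain hydratase, and Acsl3, an acyl-CoA synthetase, fell, with log2 changes of -0.29 ± 0.05 for Echs1 and -0.35 ± 0.07 for Acsl3.

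Lipid synthesis showed no common direction against CF, with 7 of 28 higher and 8 lower. Gpam, the first enzyme of glycerolipid synthesis, had 295 and 304 CPM in GW501516 iCM, against 55.8 and 61.0 CPM in CF (log2 change 2.36 ± 0.05). Acacb, the acetyl-CoA carboxylase that restrains fat import into mitochondria, had 36.1 and 37.3 CPM in GW501516 iCM, against 7.98 and 7.86 CPM in CF (log2 change 2.21 ± 0.07). Fads1, a desaturase, had 158 and 163 CPM in GW501516 iCM, against 224 and 234 CPM in CF (log2 change -0.51 ± 0.04). Cholesterol synthesis and sterol sensing genes were called higher in 5 and lower in 5 of 25 cases (median log2 change 0.07), and higher in 3 when GW501516 iCM replicate 1, GW501516 iCM replicate 2 or CF replicate 1 was left out. The median was -0.07 without GW501516 iCM replicate 1, 0.04 without replicate 2 and 0.11 without CF replicate 2. DMSO iCM over CF had 1 higher and 16 lower in that list, with a median of -0.42, and GW501516 iCM over DMSO iCM had 15 higher and 0 lower. Mvk, mevalonate kinase, had 16.8 and 16.1 CPM in GW501516 iCM, against 22.3 and 22.2 CPM in CF (log2 change -0.43 ± 0.07). Abca1, the cholesterol exporter, had 218 and 219.9 CPM in GW501516 iCM and 98.6 and 94.5 CPM in DMSO iCM, against 175 and 164 CPM in CF. Abcg1, another exporter, had 13.4 and 14.2 CPM in GW501516 iCM, against 26.0 and 28.3 CPM in CF. Abca1 rose by 0.37 ± 0.05 and Abcg1 fell by 0.98 on the log2 scale.

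Respiratory chain genes rose almost together, by small steps. Of 36 nuclear complex I subunits 34 rose and 0 fell (median log2 change 0.44), and of 45 genes of complexes II to V and cytochrome c 42 rose and 0 fell (median 0.69). Uqcrq, a complex III subunit, had 115 and 111 CPM in GW501516 iCM, against 47.5 and 47.8 CPM in CF (log2 change 1.25 ± 0.06, adjusted p = 3.18e-08). Ndufa11, a complex I subunit, had 30.0 and 27.4 CPM in GW501516 iCM, against 14.3 and 15.4 CPM in CF (log2 change 0.95 ± 0.08). Atp5a1, of ATP synthase, had 573 and 580.4 CPM in GW501516 iCM, against 354 and 358 CPM in CF (log2 change 0.70 ± 0.04). Groups did not overlap for these genes, and against DMSO iCM 18 complex I genes and 36 genes of the other complexes were higher, and 0 lower in either list. Of 13 genes of the mitochondrial genome 7 rose and 0 fell over CF. Over DMSO iCM 0 of them were higher and 0 lower, while DMSO iCM over CF had 8 higher and 0 lower. Some of these genes have near-identical nuclear copies, so their counts are uncertain. Mitochondrial ribosomal proteins were higher than in DMSO iCM in 7 of 72 cases and lower in 0. Of 72 mitochondrial ribosomal proteins 31 rose and 1 fell, and 18 rose without GW501516 iCM replicate 1. The falls were 0 without GW501516 iCM replicate 2 or CF replicate 2, and 2 without CF replicate 1.

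Pyruvate entry and tricarboxylic acid cycle genes rose in 21 and fell in 5 of 31 cases. Idh3a, of the NAD-linked isocitrate dehydrogenase, had 152 and 154 CPM in GW501516 iCM, against 60.6 and 69.1 CPM in CF (log2 change 1.24 ± 0.06). Idh2, the NADP-linked mitochondrial enzyme, had 28.5 and 28.0 CPM in GW501516 iCM, against 58.3 and 65.0 CPM in CF (log2 change -1.13 ± 0.07) and fell. Glycolysis genes rose in 14 and fell in 5 of 23 cases, and Slc16a1, a lactate carrier, had 125 and 129.7 CPM in GW501516 iCM, against 29.4 and 29.7 CPM in CF (log2 change 2.11 ± 0.04, adjusted p = 7.64e-11). The falls in these 2 lists were 3 each without GW501516 iCM replicate 2, and those of glycolysis were also 3 without CF replicate 1. Muscle isoforms of energy enzymes rose in 14 and fell in 3 of 21 cases, or fell in 1 without GW501516 iCM replicate 1. Ppp1r3c, a glycogen-targeting subunit, had 219.9 and 232 CPM in GW501516 iCM, against 2.83 and 2.59 CPM in CF (log2 change 6.38 ± 0.07). Fabp3, the heart fatty acid-binding protein, had 28.0 and 25.1 CPM in GW501516 iCM, against 4.99 and 4.32 CPM in CF (log2 change 2.51 ± 0.08). Among 32 coactivator, receptor and mitochondrial biogenesis genes 10 rose and 9 fell. Ppargc1b, the relative of Ppargc1a, had 13.9 and 15.8 CPM in GW501516 iCM, against 1.97 and 2.26 CPM in CF (log2 change 2.81 ± 0.14). Esrrg, an estrogen-related receptor of muscle metabolism, had 4.35 and 4.44 CPM in GW501516 iCM, against 0.362 and 0.427 CPM in CF (log2 change 3.47 ± 0.14).

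Replication and mitosis genes fell in 38 and rose in 2 of 44 cases, with a median log2 change of -1.06 and summed levels of 829.5 and 828 CPM in GW501516 iCM, against 1441 and 1251 CPM in CF. Cenpf, a kinetochore protein, had 8.79 and 9.21 CPM in GW501516 iCM, against 37.9 and 32.9 CPM in CF (log2 change -1.98 ± 0.09, adjusted p = 3.38e-08). Cdc20, an activator of the anaphase-promoting complex, had 8.82 and 8.78 CPM in GW501516 iCM, against 26.7 and 25.8 CPM in CF (log2 change -1.58 ± 0.09). Cenpa, the centromeric histone, went the other way, with 121 and 119 CPM in GW501516 iCM, against 24.4 and 20.8 CPM in CF (log2 change 2.41 ± 0.07). Of these genes 19 were also lower and 1 higher than in DMSO iCM. Cdkn1a, the inhibitor p21, had 641 and 626 CPM in GW501516 iCM, against 316 and 312 CPM in CF (log2 change 1.01 ± 0.04). Cdkn1b, the inhibitor p27, had 52.7 and 54.6 CPM in GW501516 iCM, against 110.5 and 119 CPM in CF (log2 change -1.10 ± 0.05), so that 1 rose and the other fell.

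All 32 interferon response genes were called higher in GW501516 iCM than in CF, with a median log2 change of 1.45 and summed levels of 4923 and 4832 CPM in GW501516 iCM, against 1910.2 and 1524 CPM in CF. In DMSO iCM over CF 31 were higher and 0 lower, and over DMSO iCM 22 were higher with GW501516 and 0 lower. CM over CF had 0 higher and 32 lower, where 70.7% of all genes were called, 34.5% higher and 36.2% lower. Rsad2, the antiviral enzyme viperin, on chromosome 12 from 26442743 to 26456452, had 146 and 143 CPM in GW501516 iCM, against 14.5 and 11.1 CPM in CF (log2 change 3.50 ± 0.11, adjusted p = 1.31e-09). Irf7, the factor that amplifies the response, had 332 and 325 CPM in GW501516 iCM, against 63.0 and 46.1 CPM in CF (log2 change 2.59 ± 0.11). Bst2, tetherin, had 367 and 343 CPM in GW501516 iCM, against 134 and 118 CPM in CF (log2 change 1.49 ± 0.07). For these genes CF replicate 1 was the higher CF library, and both GW501516 iCM libraries lay above it.

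The interferon-stimulated response element, searched as GAAA and GAAA with 2 bases of any kind between them or the reverse complement, was in the 250 bases before the start of 11 of the 22 members with a promoter in the RefSeq table, against 3.46% of all genes there. The 4 members with a match and the smallest p-values are printed 5′ to 3′ on the strand of the gene, with the matches in capitals, which overlap in Bst2. Their windows (GRCm38.p6) are chr12:26456453-26456702 on the minus strand for Rsad2, chr8:71537473-71537722 on the minus strand for Bst2, chr19:34607707-34607956 on the plus strand for Ifit3b and chr19:34583279-34583528 on the plus strand for Ifit3.
Rsad2: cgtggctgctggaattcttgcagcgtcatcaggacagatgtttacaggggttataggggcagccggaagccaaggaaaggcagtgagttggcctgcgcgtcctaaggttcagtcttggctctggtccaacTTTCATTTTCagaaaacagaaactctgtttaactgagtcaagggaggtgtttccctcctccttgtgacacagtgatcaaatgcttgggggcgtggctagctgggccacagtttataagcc
Bst2: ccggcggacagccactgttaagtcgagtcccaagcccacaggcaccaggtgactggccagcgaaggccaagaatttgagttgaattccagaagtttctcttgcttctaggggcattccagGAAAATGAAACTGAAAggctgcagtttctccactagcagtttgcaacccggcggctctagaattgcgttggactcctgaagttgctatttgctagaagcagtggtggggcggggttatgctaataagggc
Ifit3b: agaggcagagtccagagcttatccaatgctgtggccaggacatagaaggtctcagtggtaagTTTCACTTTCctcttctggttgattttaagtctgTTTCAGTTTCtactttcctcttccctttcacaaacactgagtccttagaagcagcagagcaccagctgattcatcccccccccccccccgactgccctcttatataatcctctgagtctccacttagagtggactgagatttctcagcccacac
Ifit3: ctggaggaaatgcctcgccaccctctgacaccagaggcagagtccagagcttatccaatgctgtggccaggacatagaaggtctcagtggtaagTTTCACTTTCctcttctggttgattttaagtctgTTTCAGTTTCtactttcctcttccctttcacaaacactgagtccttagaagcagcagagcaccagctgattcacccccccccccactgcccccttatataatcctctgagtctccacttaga

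Ifit3 and Ifit3b carry 2 matches each in nearly the same surroundings, and such near-identical genes may share reads, so their separate counts are uncertain. Ifit3 had 338 and 328 CPM in GW501516 iCM, against 106 and 81.6 CPM in CF (log2 change 1.83 ± 0.11). Ifit3b had 133 and 126 CPM in GW501516 iCM, against 56.9 and 48.3 CPM in CF (log2 change 1.30 ± 0.07). Both rose without overlap between the groups.

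Macrophage and leukocyte markers fell in 24 of 24 cases, with a median log2 change of -3.71. Without CF replicate 1 the median was -1.83 and 23 fell, and with limma-voom 5 fell. Their summed level was 186 and 187 CPM in GW501516 iCM and 1242 and 1282 CPM in DMSO iCM, against 4216 and 717 CPM in CF. MGT cells with ZLN005 were also low, at 175 and 176 CPM. Lyz2, lysozyme of macrophages, had 64.9 and 67.7 CPM in GW501516 iCM, against 1686 and 328 CPM in CF (log2 change -3.92 ± 0.57, or -2.29 without CF replicate 1). Csf1r, the receptor of their growth factor, had 6.43 and 6.22 CPM in GW501516 iCM, against 149 and 28.9 CPM in CF (log2 change -3.82 ± 0.61, or -2.18 without it). CF replicate 1 was far above replicate 2 for both genes. Cd163, a scavenger receptor of resident macrophages, had 0 counts in both GW501516 iCM libraries, against 2.42 and 0.0656 CPM in CF. On the floor used for genes at 0 counts, it was at least 16.5-fold lower than in CF. Against CF replicate 2 alone the bound was 0.872-fold, so that library gives no evidence of a fall in Cd163.

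Chemokine ligands fell in 13 and rose in 2 of 20 cases, 7 falling with limma-voom. Ccl12, a monocyte attractant, had 0 and 0 CPM in GW501516 iCM, against 12 and 1.61 CPM in CF, at least 90.3-fold lower on a floor of 3 counts per library, or at least 21.4-fold lower against CF replicate 2 alone. Cxcl12, the stromal chemokine, had 341 and 336 CPM in GW501516 iCM, against 490.3 and 558 CPM in CF (log2 change -0.63 ± 0.06). Ccl17 rose, with 13.8 and 13.4 CPM in GW501516 iCM, against 3.15 and 5.27 CPM in CF (log2 change 1.69 ± 0.19). The part of leukocyte RNA in the falls of chemokines was not tested. The interferon genes were called higher in 32 of 32 cases both without CF replicate 1 and without CF replicate 2, in 30 without GW501516 iCM replicate 1 and in 31 without GW501516 iCM replicate 2.

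**Figure D5:**
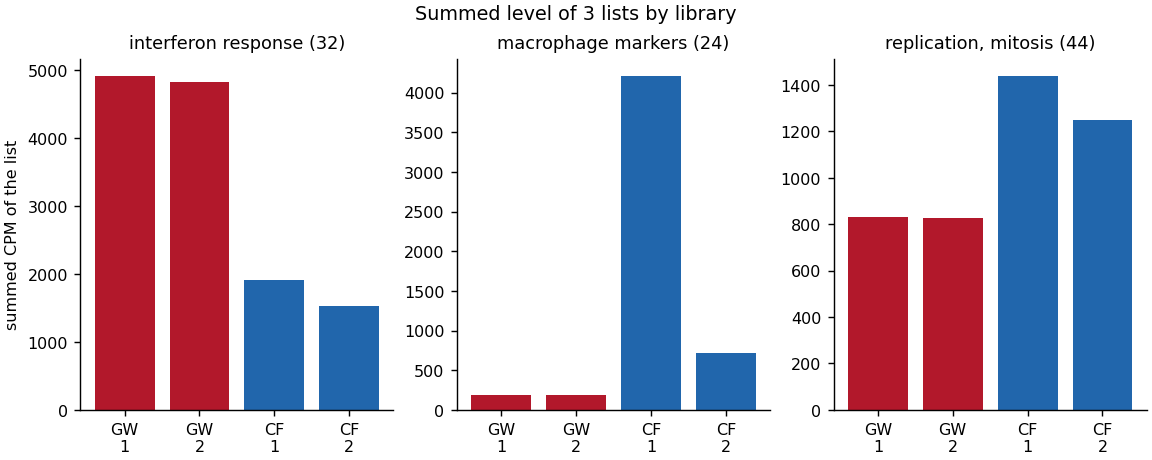
Summed CPM of 3 lists in each library, GW501516 iCM in red and CF in blue, with the number of genes in brackets and vertical axes starting at 0. The interferon sums of both GW501516 iCM libraries lie above both CF libraries, the replication and mitosis sums lie below, and the macrophage sum of CF replicate 1 is far above that of CF replicate 2.

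Other markers showed smaller shares. Endothelial markers fell in 8 and rose in 1 of 15 cases (2 without CF replicate 2), with summed levels of 158 and 162 CPM in GW501516 iCM, against 212 and 180.1 CPM in CF, and Cldn5 was at 0 counts in both GW501516 iCM libraries. Cldn5 was also near 0 in CF, with a mean of 0.0157 CPM, and was not called (adjusted p = 0.37). Epicardial markers fell in 6 and rose in 3 of 10 cases. Krt7, a keratin of the mesothelium, had 0.894 and 0.803 CPM in GW501516 iCM, against 14.9 and 16.9 CPM in CF (log2 change -4.22 ± 0.29). Msln, mesothelin, had 75.2 and 70.8 CPM in GW501516 iCM, against 30.5 and 34.6 CPM in CF (log2 change 1.17 ± 0.07). Mural markers, of pericytes and smooth muscle, were split at 4 and 4 of 9. Rgs5, a pericyte regulator, had 4.13 and 5.39 CPM in GW501516 iCM, against 38.6 and 59.7 CPM in CF (log2 change -3.37 ± 0.21). Cspg4, the NG2 proteoglycan, had 80.3 and 85.5 CPM in GW501516 iCM, against 16.9 and 24.5 CPM in CF (log2 change 2.00 ± 0.13). Of 6 Schwann cell markers 2 fell, or 1 without GW501516 iCM replicate 1, GW501516 iCM replicate 2 or CF replicate 2, and 1 rose without CF replicate 1.

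By the rule for named genes, most of the 12 largest falls were of genes far higher in CF replicate 1 than in replicate 2. Several of these were leukocyte genes. Mrc1, the mannose receptor, had 1.64 and 2.73 CPM in GW501516 iCM, against 345 and 23.2 CPM in CF (log2 change -6.40 ± 1.13, or -3.39 without CF replicate 1). Fcrls, an Fc receptor-like gene, had 1.62 and 1.73 CPM in GW501516 iCM, against 183 and 17.1 CPM in CF (log2 change -5.90 ± 0.99, or -3.33 without it). Mmp9, a protease, had 0.0725 and 0.0502 CPM in GW501516 iCM, against 20.2 and 0.197 CPM in CF, and its call was lost without CF replicate 1 (log2 change -1.62, adjusted p = 0.207) and without either GW501516 iCM library (adjusted p = 0.0533 and 0.0548). Other large falls were of genes high in both CF libraries. Saa3, an acute-phase protein, had 0.483 and 0.100 CPM in GW501516 iCM, against 31.5 and 16.3 CPM in CF (log2 change -6.33 ± 0.50). Sfrp2, a secreted Wnt modulator, had 0.580 and 0.803 CPM in GW501516 iCM, against 26.9 and 30.6 CPM in CF (log2 change -5.37 ± 0.16, adjusted p = 1.35e-09).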

How the data were processed

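The deposited table holds raw counts of 10 libraries by gene. According to the submitters' processing notes, its authors ran Trimmomatic 0.36, HISAT2, SAMtools and featureCounts of Subread 1.5.1 with build mm10. Per the labels' protocols, 2 ug of TRIzol-extracted total RNA was used for TruSeq libraries of polyadenylated RNA. How strand and multiply mapped reads were handled, and with which annotation, is not given in the sources used here. Counts of overlapping or near-identical genes are therefore uncertain. The labels gave the groups.

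Counts were scaled by TMM, filtered with filterByExpr (15740 of 21513 genes left) and fitted over all 5 groups with edgeR 4.0.16 (R 4.3.3, quasi-likelihood test, Benjamini-Hochberg adjustment over all genes, called at 0.05), whose adjusted p is given unless another tool is named. The standard error was taken as the size of the log2 change divided by the root of its F statistic. The members and the 40 gene lists were chosen with earlier results of these data known. The genes named are the 6 study genes, the 12 largest called rises and falls without overlap and with at least 5 CPM in the higher group, up to 5 called members of each list with the smallest p and up to 2 that went against it, and the 5 largest rises and falls over DMSO iCM. Some genes were not analysed here. Folds of genes at 0 are bounds from a floor of 3 counts per library and cover counting error only. The fit was checked on simulated counts, with 50 genes changed at each of the folds 1.5, 2, 4 and 8. More calls were false than the nominal share, 9.64% in the comparison with CF and 8.67% in that with DMSO iCM. Far fewer genes were changed there than were called in the real counts, so these shares cannot be carried over to the real calls. Alternatives were limma-voom (limma 3.58.1), DESeq2 1.42.0, other scalings, filters and thresholds, a replicate block and leaving out each library. Gene positions and promoters are from RefSeq (GRCm38.p6), and figures were drawn with matplotlib 3.10.9.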

Additional observations from a re-analysis of the deposited data

How the results depend on the processing

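Against CF, 7849 genes were called. The count was 6306 when only the groups compared were fitted (3171 higher, 3135 lower) and 5949 at an adjusted p under 0.01 (2958 higher, 2991 lower). The alternatives gave 7285 with DESeq2, 7524 with limma-voom, 7654 with a replicate block and 6154 to 8302 with a library left out, and 2731 when a change of at least 1 log2 unit was also asked (1258 higher, 1473 lower). Against DMSO iCM, 2323 genes were called. The count was 4342 when only the groups compared were fitted (2214 higher, 2128 lower), 1121 at an adjusted p under 0.01 (682 higher, 439 lower) and 508 at 1 log2 unit or more (154 higher, 354 lower), limma-voom gave 703 lower, and leaving out a library gave 955 to 1256 called, 585 to 749 higher and 347 to 507 lower. The cause was not tested. Replicate numbers did not pair the samples (correlation of deviations -0.001 between GW501516 iCM and CF), so the block is only an alternative, under which 2 of 247 named genes lost their call against CF. No called named gene changed sign against CF under the scalings, filters, tools and left-out libraries tried, and Ppard, which was not called, turned to 0.02 without GW501516 iCM replicate 1 or CF replicate 1. With limma-voom 16 lost the call, among them Mrc1, Fcrls, C1qa and Ccl12, and with DESeq2 2 did. Leaving out genes at least 1 log2 unit apart between the CF libraries removed all 24 macrophage markers and left 6 chemokine falls. Depth limits statements on genes near 0, whose log2 changes moved with single libraries: Abra was at 8.59 ± 0.19, and at 8.0 without CF replicate 1 and 9.59 without CF replicate 2.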

Other observations

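Fgf23 and Kcnc1 were higher in GW501516 iCM and near 0 in both CF and CM. Fgf23, a hormone known from bone, had 20.3 and 23.6 CPM in GW501516 iCM and 4.6 and 4.67 CPM in DMSO iCM, against 0 and 0.0656 CPM in CF, and 0 and 0.102 CPM in CM. It was higher than in DMSO iCM by 2.24 ± 0.28 on the log2 scale (adjusted p = 0.000468). Kcnc1, a potassium channel related to Kcnc4, had 5.27 and 5.70 CPM in GW501516 iCM, against 0.0315 and 0 CPM in CF and 0 CPM in both CM libraries. Abra, an actin-binding protein of muscle, was near 0 in CF alone, with 48.9 and 52.0 CPM in GW501516 iCM, against 0.0630 and 0.197 CPM in CF and 14.8 and 16.8 CPM in CM. MGT cells with ZLN005 had 11.4 and 11.3 CPM of Fgf23 and 61.1 and 65.9 CPM of Abra. Among the largest rises over DMSO iCM was Slc25a34, a mitochondrial carrier, with 10.5 and 9.48 CPM in GW501516 iCM and 0.558 and 0.322 CPM in DMSO iCM, against 1.23 and 1.36 CPM in CF. Dnajb13, a J-domain protein of sperm and cilia, had 5.2 and 5.59 CPM in GW501516 iCM and 0.391 and 0.242 CPM in DMSO iCM, against 1.01 and 0.361 CPM in CF. The log2 changes over DMSO iCM were 4.49 ± 0.29 for Slc25a34 and 4.07 ± 0.46 for Dnajb13.

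Small heat shock proteins and muscle co-chaperones rose in 11 and fell in 0 of 15 cases. Hspb7, a heat shock protein of heart muscle, had 787 and 788 CPM in GW501516 iCM, against 146 and 199 CPM in CF (log2 change 2.19 ± 0.11). Cryab, alpha-B crystallin, had 790.0 and 763 CPM in GW501516 iCM, against 231 and 274 CPM in CF (log2 change 1.62 ± 0.07). Integrated stress response genes rose in 9 and fell in 4 of 21 cases. Vldlr, a lipoprotein receptor, had 247 and 243 CPM in GW501516 iCM, against 57.8 and 64.5 CPM in CF (log2 change 2.00 ± 0.05). Ddit4, an inhibitor of mTOR signalling, had 27.1 and 22.1 CPM in GW501516 iCM, against 68.9 and 71.5 CPM in CF (log2 change -1.51 ± 0.09). NRF2 antioxidant genes rose in 9 and fell in 3 of 18 cases, with 5 and 4 rises without GW501516 iCM replicate 1 and 2, and 6 falls without CF replicate 2. The aryl hydrocarbon receptor gene Ahr had 2.42 and 2.76 CPM in GW501516 iCM, against 16.3 and 18.5 CPM in CF (log2 change -2.75 ± 0.16). Its target Cyp1b1 had 57.1 and 56.1 CPM in GW501516 iCM, against 158 and 182 CPM in CF (log2 change -1.59 ± 0.06). Both fell. Cyp1a1, another target, had 0.435 and 0.502 CPM in GW501516 iCM, against 0.0315 and 0.0656 CPM in CF (log2 change 3.21 ± 0.56). Of the aryl hydrocarbon receptor list 3 genes rose and 4 fell among 9, and of the sterol efflux list 3 rose and 5 fell among 11. Nr1h3, the receptor LXRα, had 13.9 and 16.7 CPM in GW501516 iCM, against 3.62 and 3.69 CPM in CF (log2 change 2.06 ± 0.12).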
